A study of Arabidopsis thaliana with 75 samples.

Results

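The 150 genes described here were those whose RNA in cut wild type Arabidopsis thaliana leaves stood highest at both 12h and 18h after wounding, relative to the first hours and to the later days. They were taken from 32833 genes by a score on the wild type libraries alone. Levels were counts scaled to a common library total (CPM), averaged over 3 libraries and put on the log2(CPM + 1) scale. The score was the lower of the 12h and 18h levels minus the highest of the levels at 0h, 1h, 2h and 4h or at 2D, 3D, 4D and 5D, and the 150 genes with the largest scores were kept. Wild type at 6h and 1D was not used by the score, nor was any mutant library. Levels of wild type at the times in the score are therefore given as descriptions, and tests are given for other libraries.

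All libraries came from the 8th leaf of 4-week-old plants that had been wounded with a blade, and every sample, those at 0h included, is labelled as wounded. There were 3 libraries in each of 25 groups. Wild type (WT) was sampled at 12 times, namely 0h, 1h, 2h, 4h, 6h, 12h and 18h in hours, and 1D, 2D, 3D, 4D and 5D in days. Plants labelled gpat4 gpat8, after 2 acyltransferases that make precursors of cutin and suberin, were sampled at 7 of these, namely 0h, 2h, 4h and 12h, then 1D, 2D and 3D. Plants labelled rbohE, after an NADPH oxidase that makes superoxide outside the cell, were sampled at 6, namely 0h, 2h and 4h, then 1D, 3D and 5D, so the rbohE series has no library at 12h or 18h. The labels name no alleles and do not say whether replicates were separate plants, so p-values measure the spread between these libraries, which may be technical. Hours since the cut and the hour of the day cannot be told apart, as uncut leaves of later times were not analysed here.

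Salicylic acid is a plant hormone made in response to biotrophic pathogens. It acts through PAD4 and EDS1, the transcription factors SARD1 and CBP60g, and WRKY factors, and it raises genes of local and systemic resistance. Receptor-like kinases and receptor-like proteins at the plasma membrane perceive microbial and wall-derived molecules, and many of them must be folded and glycosylated in the endoplasmic reticulum by disulfide isomerases and calreticulins before they reach the membrane. In a cut leaf, jasmonate signalling comes first, and the wound surface is later sealed by suberin and lignin.

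WRKY factors bind DNA at the W-box, whose core is TTGAC, and the 300 bases just before the annotated start of each of the 150 genes were searched for it on both strands. The core was present in 97 of 150 windows, or 64.7%, against 11752 of 23280 windows of the same length before all genes that were tested, or 50.5%. At least 2 copies were present in 39 windows, or 26%, against 18.1% of all. The longer forms TTGACC or TTGACT, which contain the core, were in 44.7% against 32.1%. The share holding the core was 77.8% of 9 transporters, 75% of 12 signalling genes, 72.7% of 22 metabolic enzymes and 70% of 10 folding genes. It was 66.7% of 15 receptor genes, 63.6% of 11 salicylic acid genes and of 11 transcription factors, 62.8% of 43 others and 41.2% of 17 wall genes. Other motifs gave smaller or opposite differences: TGACG was in 27.3% of members against 22% of all genes, the G-box CACGTG in 7.33% against 7.64%, and the evening element AAATATCT in 3.33% against 5.68%. These matches describe the letters only and do not show binding.

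The windows of 5 members are printed because later results turn on these genes and because they differ in the number of cores. They are read 5′ to 3′ on the strand of the gene and end at the base before its start, from the RefSeq copy of TAIR10.1, with TTGAC and its reverse complement GTCAA in capitals. The ANK window lies at chr5:22186634-22186933 on the minus strand and holds 2 cores. The SARD1 window at chr1:27749249-27749548 (minus strand) holds 4, the WRKY70 window at chr3:20910624-20910923 (minus strand) holds 1, the CRK20 window at chr4:12174433-12174732 (plus strand) holds 3, and the PDIL1-2 window at chr1:29126348-29126647 (plus strand) holds 3.
ANK: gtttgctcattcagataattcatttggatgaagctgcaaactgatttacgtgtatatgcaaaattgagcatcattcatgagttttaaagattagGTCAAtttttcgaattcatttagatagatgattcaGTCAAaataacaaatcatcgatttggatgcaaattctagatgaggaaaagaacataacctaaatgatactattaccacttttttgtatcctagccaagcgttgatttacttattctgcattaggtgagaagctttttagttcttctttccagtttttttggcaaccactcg
SARD1: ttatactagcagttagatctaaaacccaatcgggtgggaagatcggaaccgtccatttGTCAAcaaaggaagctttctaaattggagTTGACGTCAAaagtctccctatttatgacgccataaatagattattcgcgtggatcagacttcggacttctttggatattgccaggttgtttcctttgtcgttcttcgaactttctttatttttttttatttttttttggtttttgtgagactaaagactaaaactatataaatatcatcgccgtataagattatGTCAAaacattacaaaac
WRKY70: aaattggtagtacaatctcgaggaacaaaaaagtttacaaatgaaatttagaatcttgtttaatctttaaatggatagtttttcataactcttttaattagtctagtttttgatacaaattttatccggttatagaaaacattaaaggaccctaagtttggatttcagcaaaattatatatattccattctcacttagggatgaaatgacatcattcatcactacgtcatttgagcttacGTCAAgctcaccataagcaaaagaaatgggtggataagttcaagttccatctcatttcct
CRK20: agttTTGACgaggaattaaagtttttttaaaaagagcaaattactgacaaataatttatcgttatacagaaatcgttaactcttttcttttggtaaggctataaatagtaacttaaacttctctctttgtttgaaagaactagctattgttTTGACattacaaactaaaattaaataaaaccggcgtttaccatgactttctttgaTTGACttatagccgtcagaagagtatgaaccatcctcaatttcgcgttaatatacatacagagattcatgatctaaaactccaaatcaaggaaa
PDIL1-2: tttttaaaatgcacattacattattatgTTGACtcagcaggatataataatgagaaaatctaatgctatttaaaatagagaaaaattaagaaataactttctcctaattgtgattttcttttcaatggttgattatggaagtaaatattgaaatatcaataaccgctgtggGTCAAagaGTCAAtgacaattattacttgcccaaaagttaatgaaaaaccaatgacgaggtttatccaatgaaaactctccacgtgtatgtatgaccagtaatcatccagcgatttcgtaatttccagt

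Library totals ran from 46045188 to 67376782 counts with a median of 61143105. The files give 2 warnings about labels. In the libraries labelled gpat4 gpat8, mean GPAT4 was below wild type at each of the 7 shared times (68.7 against 203 CPM at 2h), but mean GPAT8 was above wild type at each of them (10.5 against 2.93 CPM at 12h), so GPAT8 goes against the label and the genotype is written as a label throughout. RBOHE was 2.99 CPM in rbohE and 51.2 CPM in WT at 3D, while at 1D it was at most 0.946 CPM in every library of both, which checks nothing. With the gpat4 gpat8 label, the descriptions of 9 libraries (those of 0h, 12h and 1D) hold a letter M that is not explained. No WT library holds it, so the label and M cannot be told apart against WT at these times. The plastid-encoded share of the 9 libraries was 0.943% to 2.57%, against 0.212% to 0.878% in the other 66 libraries. The morning clock gene CCA1 was 260 CPM (0h) and 304 CPM (12h) in these M libraries, against 10.6 CPM in WT at 0h and 73.7 CPM in WT at 12h. Flower markers summed to at most 3.02 CPM and 4 mesophyll markers to 1970 to 19300 CPM. In bulk RNA, fewer cells of a type and less RNA per cell cannot be told apart.

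The 150 genes comprised 149 protein-coding genes and 1 long noncoding RNA, spread over chromosomes 1 to 5 as 39, 24, 33, 23 and 31. Only 2 pairs were neighbours, namely AT1G80580 with WRKY66 and AT1G24145 with AT1G24147. By annotated function they fell into 11 salicylic acid and resistance genes, 15 receptors, 12 signalling kinases and calcium proteins, 11 transcription factors, 10 folding, glycan and sorting genes, 17 wall and extracellular enzymes, 9 transporters, 22 metabolic enzymes and 43 others. All 150 passed the filter on low counts. Scores ran from 1.31 for ANK to 0.28 for SRG1, with a median of 0.40, and 10 members scored at least 1. The cut is not a natural gap, since 1164 genes had a score above 0 and the score at rank 150 was 0.2841 against 0.2839 for the next gene. The 3 members just inside were AT1G24145, CNGC11 and SRG1, and the 3 genes just outside were AATP1, scpl14 and AT2G44930. Mean WT levels of CNGC11 were 311 CPM (12h), 234 CPM (18h) and 192 CPM (4D), its highest comparison time. Those of AATP1 were 3.08 CPM (12h), 1.35 CPM (18h) and 0.931 CPM (5D).

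In wild type the score fixed high levels at 12h and 18h and left those at 6h and 1D free. The mean at 12h exceeded that at 18h for 126 of the 150 genes. Of the 12 WT groups, the highest mean was at 12h for 119 genes, at 18h for 18, at 1D for 7 and at 6h for 6. The lowest of the 8 comparison means was at 2h for 85 genes. All 6 libraries at 12h and 18h stood above all 24 libraries of the 8 comparison times for 90 genes. The median over genes of the 6h mean was 47.3% of the 12h mean (range 7.01% to 119%), that of the 18h mean was 80.2%, and that of the 1D mean was 66.2%. By role, the median 6h level was 30.2% of the 12h level for receptors and 35.4% for salicylic acid genes, against 72.5% for folding genes and 74.2% for transporters. The sum of 3 guard cell markers was also highest at 12h in WT, with means of 97.5 CPM (0h), 285 CPM (6h), 344 CPM (12h), 165 CPM (18h) and 127 CPM (1D). Its part in these levels was not tested.

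**Figure D1:**
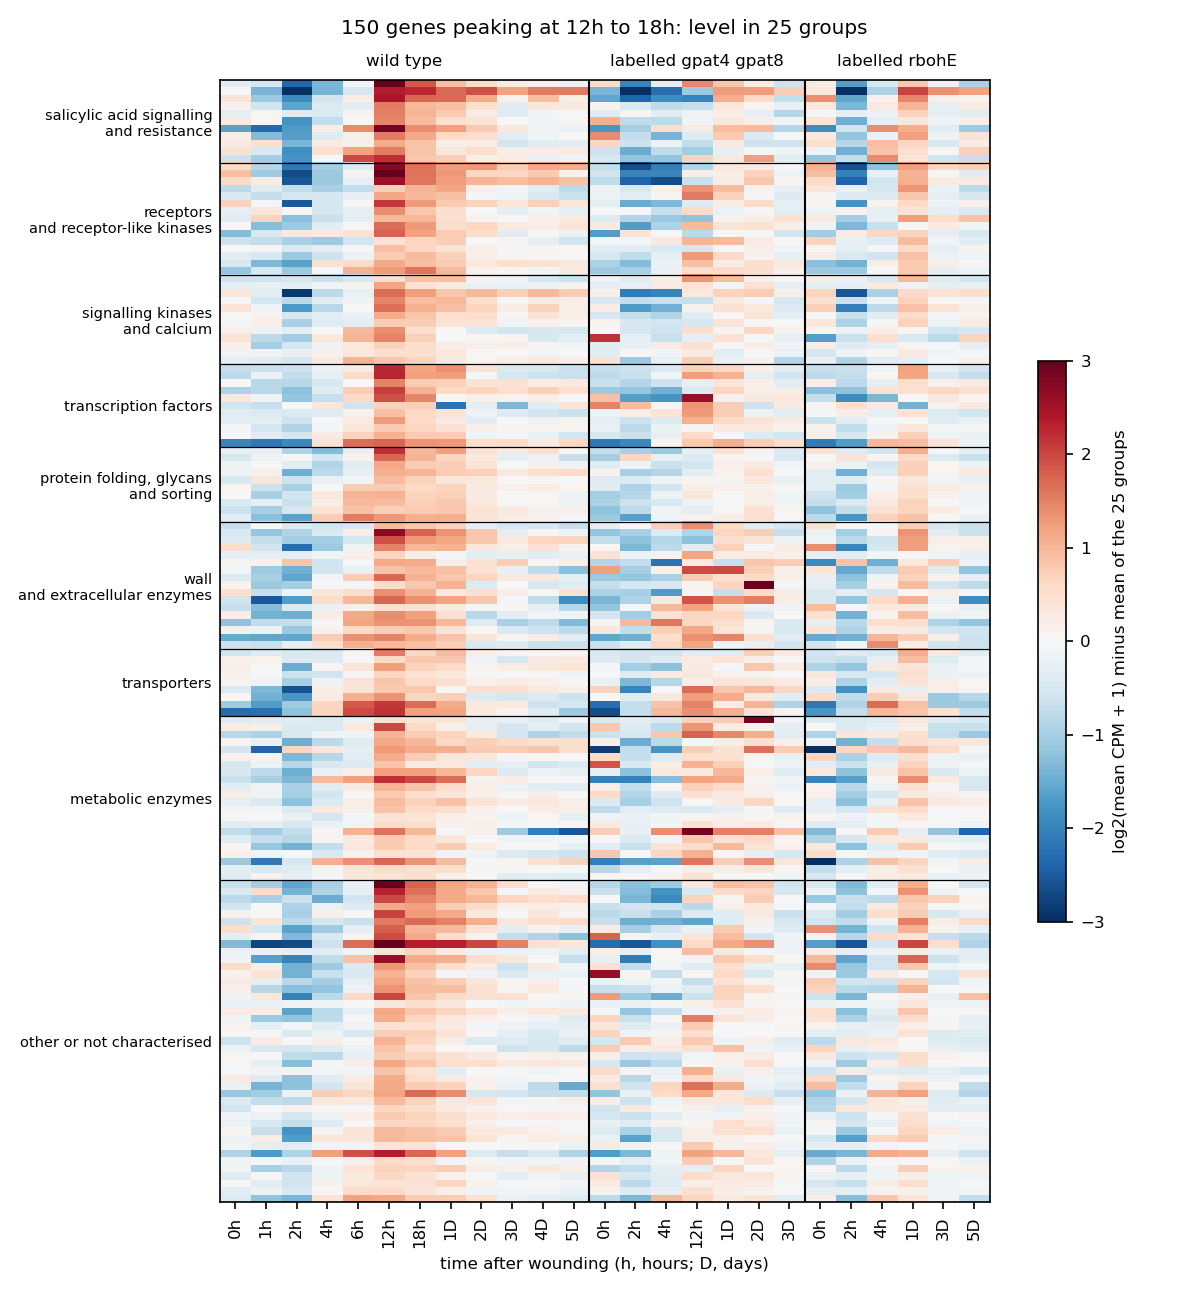
Level of each of the 150 genes (rows, by role) in the 25 groups (columns, by genotype and time), as log2(mean CPM + 1) minus the mean of the gene over the 25 groups, with colours ending at -3 and 3. The band at WT 12h and 18h was fixed by the choice of genes, and the columns of the libraries labelled gpat4 gpat8 and rbohE were not used for it.

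Wild type at 6h and at 1D, which the score did not use, could be tested against each other. In edgeR's quasi-likelihood test with Benjamini-Hochberg adjustment over 23475 genes, a gene was called at an adjusted p under 0.05 and an absolute log2 fold change of at least 1. At 1D against 6h, 34 members were higher and 4 lower, against 7.39% of all genes higher and 6.72% lower (14.1% in either direction). The median log2 fold change of the members was 0.39 against -0.01 for all genes tested. The 34 held 6 of 15 receptors, 3 of 11 salicylic acid genes, 3 of 10 folding and sorting genes (1 to 3 with 1 library left out) and 5 of 17 wall enzymes. LURP1 was at 94.5, 80.4 and 192 CPM at 6h and at 472, 625 and 579 CPM at 1D, with no overlap, and rose by 2.15 ± 0.37 (log2, SE; adjusted p = 4.1e-06). AT1G56120, a leucine-rich repeat receptor kinase, was at 13.3 to 18.0 CPM at 6h and 40.3 to 54.8 CPM at 1D and rose by 1.66 ± 0.25 (adjusted p = 2.5e-07). PBS3 and NAP went the other way. PBS3 averaged 63.2 CPM at 6h and 26.2 CPM at 1D with no overlap, a log2 change of -1.32 ± 0.42 (adjusted p = 0.0091), and NAP averaged 61.6 CPM at 6h and 19.5 CPM at 1D with no overlap, a change of -1.70 ± 0.26 (adjusted p = 3.8e-07).

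The libraries labelled gpat4 gpat8 gave the only mutant samples at the 12h peak. The 12h mean in these libraries was below the WT mean for 121 of 150 genes and under 50% of it for 66, with a median of 55.6% (range 4.32% to 239%). That comparison uses the WT 12h level that chose the genes and is a description only. Within the label, 12h against 0h called 49 members higher and 10 lower, against 9.6% of all genes higher and 6.9% lower (16.5% in either direction). The median log2 fold change was 0.59 against 0.06 for all genes. Against 4h, 47 were higher and 2 lower (9.64% and 9.81% of all genes, 19.5% in either direction), with a median of 0.70 against -0.04. Against 2D, 33 were higher and 11 lower (9.9% and 10.6% of all genes, 20.5% in either direction), with a median of 0.29 against 0.03. Against 1D, 15 were higher and 18 lower (5.88% and 7.44% of all genes, 13.3% in either direction), with a median of 0.04 against 0. The highest mean of the 7 groups was at 12h for 55 members, at 2D for 43 and at 1D for 34. The 12h mean was the highest for 36.7% of members, against 10.0% of the 29805 genes with a count, which include genes too low to test. The comparisons with 0h and 1D lie within the M libraries, and those with 4h and 2D cross from them to the others. Guard cell markers summed under this label to means of 34.5 CPM (0h), 182 CPM (4h), 180 CPM (12h), 107 CPM (1D) and 72.8 CPM (2D). Xylem markers summed to means of 14.3 CPM (0h), 39.5 CPM (12h) and 124 CPM (1D). Mesophyll markers summed to means of 17100 CPM (0h), 13800 CPM (4h), 10900 CPM (12h), 11700 CPM (1D) and 4130 CPM (2D) under this label. In WT the mesophyll means were 5560 CPM (12h) and 4320 CPM (1D). The part of these markers was not tested. Leaving out 1 library at a time gave 22 to 38 members called between 12h and 1D, the lowest without replicate 3 at 1D, where 11 were higher and 11 lower.

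**Figure D2:**
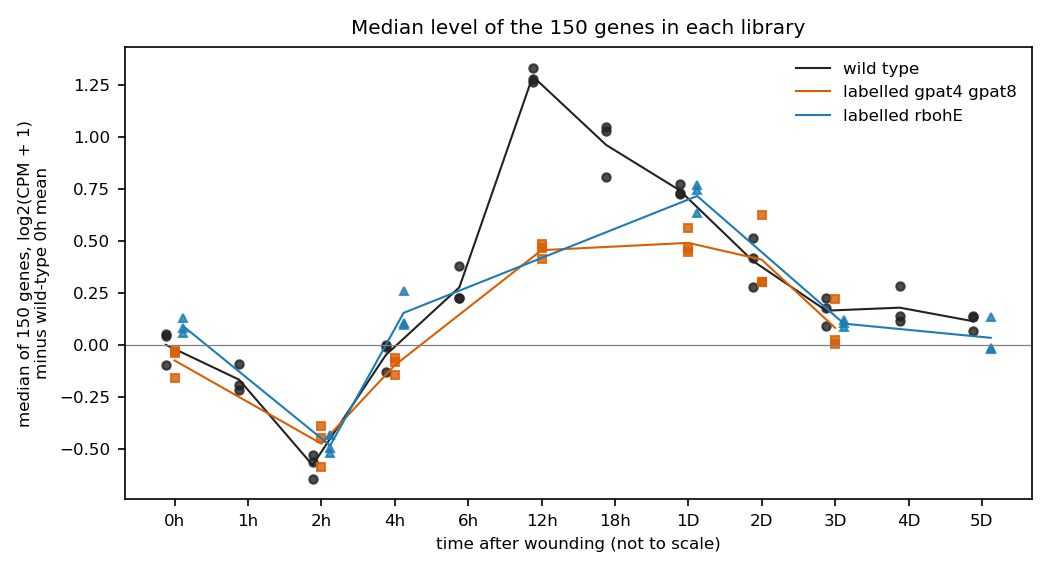
Median over the 150 genes of the log2 difference from the wild type mean at 0h, on the log2(CPM + 1) scale, with 1 point for each of the 75 libraries against time after wounding. Libraries labelled gpat4 gpat8 lie at 0.41 to 0.49 at 12h, below the 1.26 to 1.33 of wild type that the choice of genes fixed, and rbohE at 1D lies at 0.63 to 0.77 beside 0.73 to 0.78 in wild type.

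Salicylic acid and resistance genes were the group whose 12h level in the libraries labelled gpat4 gpat8 was furthest below the WT mean. All 11 were under 50% of it, with a median of 24% and a range of 4.32% to 33.5%. This ranking uses the WT 12h level that chose the genes and is a description only. Within the label, 12h against 0h called 2 of the 11 higher and 4 lower, with a median of -0.52. Of all genes, 9.6% were higher and 6.9% lower against 0h, and 5.88% and 7.44% against 1D. Against 1D, none of the 11 was higher and 5 were lower, namely WRKY70, PCR1, MC2, HR3 and LURP1. Leaving out 1 library at a time gave 3 to 5 lower than at 1D and 1 to 2 higher than at 0h. In those libraries CCA1 was 260 CPM (0h), 304 CPM (12h) and 4.26 CPM (1D), and the part of the clock was not tested.

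ANK (AT5G54610, chromosome 5, 22184545 to 22186633), an ankyrin-repeat protein of immunity also known as BDA1, had the highest score. It was at 304, 307 and 266 CPM in WT at 12h and at 134, 132 and 77.2 CPM at 18h, against 33.8, 15.1 and 23.9 CPM at 0h. Under the gpat4 gpat8 label it was at 38.4, 56.1 and 44.2 CPM at 0h and 111, 61.4 and 80.2 CPM at 12h. These 2 groups did not overlap, but the log2 change of 0.79 ± 0.36 was not called (adjusted p = 0.071). ANK was higher at 12h than at 4h, by 1.62 ± 0.37 (adjusted p = 0.00022), and than at 2D, by 1.47 ± 0.37 (adjusted p = 0.0007). It overlaps a gene on the other strand, and whether the authors' counting used strand is not given in the sources used here, so its counts are uncertain.

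LURP1, a gene of late response to a downy mildew, and PCR1, a plasma membrane protein of cadmium resistance, rose between 12h and 1D under the gpat4 gpat8 label. PCR1 is counted here among the salicylic acid and resistance genes, although its described function is cadmium resistance. LURP1 was at 45.7, 78.5 and 74.2 CPM at 0h, 100, 47.9 and 90.3 CPM at 12h and 264, 462 and 516 CPM at 1D. The 0h and 12h libraries overlapped and all 3 at 1D stood above them, with a log2 difference of 12h from 1D of -2.33 ± 0.38 (adjusted p = 9.7e-07). In WT, LURP1 was at 931, 892 and 841 CPM at 12h, which is a description only since the score used that level. PCR1 was at 15.0, 8.61 and 16.5 CPM at 12h and 60.4, 125 and 179 CPM at 1D under the gpat4 gpat8 label, a difference of -3.13 ± 0.48 (adjusted p = 2.8e-07), and at 356, 323 and 250 CPM in WT at 12h.

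WRKY70, a transcription factor that promotes salicylic acid responses and restrains jasmonate responses, was lower at 12h than at 0h under the gpat4 gpat8 label. It was at 277, 237 and 325 CPM at 0h and 89.3, 54.5 and 93.7 CPM at 12h, with no overlap, a log2 change of -1.91 ± 0.35 (adjusted p = 8.4e-06). At 1D it was at 99.5, 185 and 259 CPM, and the difference of 12h from 1D, -1.14 ± 0.34 (adjusted p = 0.006), was lost without replicate 2 at 12h or replicate 3 at 1D. WT stood at 115, 99.6 and 140 CPM at 0h and 288, 317 and 304 CPM at 12h. PAD4, the lipase-like partner of EDS1, was at 52.5 to 65.9 CPM at 0h and 24.4 to 28.8 CPM at 12h under that label, a change of -1.25 ± 0.21 (adjusted p = 1.3e-06). SARD1, which binds the promoter of the salicylic acid synthase ICS1, did not pass the test, at 13.2 to 32.2 CPM at 0h and 14.9 to 16.6 CPM at 12h, and it is uncertain because it overlaps a gene on the other strand. PBS3, which conjugates isochorismate to glutamate in salicylic acid synthesis, was at 7.37, 9.60 and 15.2 CPM at 0h and 26.9, 24.2 and 23.0 CPM at 12h and rose by 1.12 ± 0.43 (adjusted p = 0.026). That call was lost without replicate 1 at 12h (1.06), or replicate 1 (0.92) or replicate 2 (1.04) at 0h. The other gene that rose was AIG1, a GTP-binding protein induced by an avirulent pathogen, from 1.03 to 2.44 CPM at 0h to 7.24 to 11.3 CPM at 12h.

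In rbohE, most of the 11 genes were low at 2h. At 2h against 0h, 8 of the 11 were lower and 1, AIG1, was higher, while 48 of all 150 members were lower and 20 higher, against 23.7% of all genes lower and 21.6% higher (45.3% in either direction). The median log2 fold change of the members was -0.57 against -0.04 for all genes tested. A wider list of 40 salicylic acid and systemic resistance genes, which holds 6 members, had 14 higher and 13 lower in this comparison, with a median of -0.07. LURP1 was at 210, 220 and 217 CPM at 0h and 11.8, 5.89 and 10.3 CPM at 2h, with no overlap, a change of -4.27 ± 0.41 (adjusted p = 1.4e-13). At 1D it was at 647, 805 and 647 CPM and had risen by 1.57 ± 0.37 over 0h (adjusted p = 0.00021). PBS3 was at 5.68 to 6.99 CPM at 0h and 17.8 to 22.3 CPM at 1D and rose by 1.57 ± 0.43 (adjusted p = 0.0016). AIG1 was also higher at 1D, so that 3 of the 11 rose and none fell, against 12.8% of all genes higher and 11.7% lower (24.5% in either direction).

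**Figure D3:**
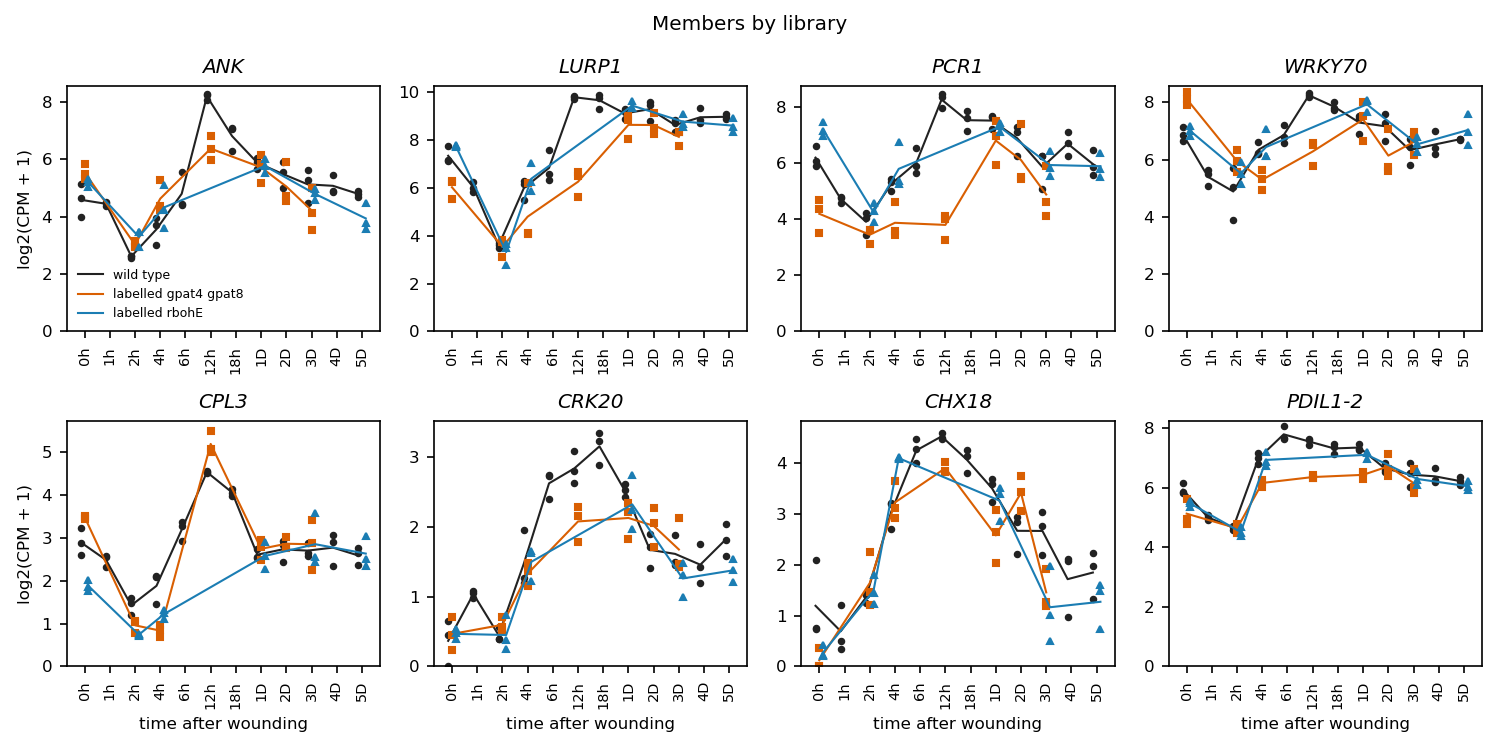
Level of 8 members in each library as log2(CPM + 1), against time after wounding (not to scale), with 1 point per library, lines through the group means and genotypes in colour. LURP1, PCR1 and WRKY70 stand at 47.9 to 100, 8.61 to 16.5 and 54.5 to 93.7 CPM at 12h in libraries labelled gpat4 gpat8, below the wild type points, whereas CPL3 stands above its wild type points at 31.4 to 44.0 CPM.

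Receptors divided into genes with a rise at 12h in libraries labelled gpat4 gpat8 and genes without one. Of 15, 7 were higher at 12h than at 0h and 1 was lower, and 9 were higher and 1 lower than at 4h. Shares of all genes were 9.6% higher and 6.9% lower against 0h, and 9.64% and 9.81% against 4h. AT5G60650 is annotated by RefSeq as a proline-rich receptor-like kinase. Its gene spans only bases 24374179 to 24374798 of chromosome 5, and whether it encodes a kinase domain was not checked. AT5G60650 was at 0.452, 0.307 and 0.781 CPM at 0h and 3.10, 4.22 and 4.64 CPM at 12h, with no overlap, and rose by 2.87 ± 0.47 (adjusted p = 8.5e-07). At 1D it was at 1.60 to 1.92 CPM, below all 3 libraries at 12h, and its difference of 12h from 1D was 1.27 ± 0.44 (adjusted p = 0.016). That call was lost without replicate 3 at 12h (1.16), replicate 1 at 1D (1.22) or replicate 2 at 1D (1.24). CRK20, a cysteine-rich receptor-like kinase induced by pathogens, was at 0.177, 0.631 and 0.365 CPM at 0h and 3.87, 2.44 and 3.47 CPM at 12h, a rise of 2.96 ± 0.44 (adjusted p = 8.2e-08), and stayed at 2.52 to 4.07 CPM at 1D. CRK20 shares 90.3% identity over 59.0% of its length with AT4G23310, so reads may be split between them and its counts are uncertain.

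The receptor gene that was lower at 12h was RPS2, an intracellular immune receptor that detects a bacterial effector. It was at 0.963, 1.63 and 1.53 CPM at 0h, 0.574, 0.205 and 0.333 CPM at 12h and 1.77, 2.24 and 3.28 CPM at 1D under the gpat4 gpat8 label. Its 12h libraries lay below all the others of these 3 groups, with changes of -1.97 ± 0.58 from 0h (adjusted p = 0.0039) and -2.65 ± 0.58 from 1D (adjusted p = 0.00016). RPS2 overlaps a gene on the other strand and is uncertain. AT1G56120 and WAK1, a wall-associated kinase that binds pectin, had no called change from 0h to 12h under that label. AT1G56120 was at 9.77 to 13.4 CPM at 0h and 8.25 to 12.4 CPM at 12h, where WT at 12h was at 164, 149 and 106 CPM. It was higher at 12h than at 4h, when it was at 3.30 to 5.03 CPM (1.24 ± 0.26, adjusted p = 7.6e-05), and lower than at 1D, when it was at 17.1 to 29.8 CPM (-1.20 ± 0.25, adjusted p = 9.5e-05). WAK1 was at 140 to 243 CPM at 0h and 125 to 216 CPM at 12h, where WT at 12h was at 898 to 1020 CPM. AT5G45000, which overlaps a gene on the other strand and is uncertain, averaged 1.41 CPM at 12h under that label. It was higher than at 0h, when it averaged 0.334 CPM (1.98 ± 0.40, adjusted p = 4.5e-05). It was lower than at 4h, at 3.29 CPM (-1.34 ± 0.35, adjusted p = 0.001), and than at 1D, at 3.45 CPM (-1.23 ± 0.35, adjusted p = 0.0033), with no overlap in any of the 3 comparisons. In rbohE at 2h, AT1G56120 was at 2.04 to 2.92 CPM against a mean of 42.6 CPM at 0h (log2 change -3.86 ± 0.29, adjusted p = 5.6e-18).

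Among the signalling genes, CNGC11 is a cyclic nucleotide-gated channel whose counts are uncertain, since it shares 92.2% identity over 24.7% of its length with AT2G46450. In rbohE it was at 147 to 166 CPM at 0h and 13.2 to 18.8 CPM at 2h (log2 change -3.07 ± 0.17, adjusted p = 3.4e-23) and at a mean of 145 CPM at 1D. Under the gpat4 gpat8 label it was at 91.2 to 128 CPM at 0h and 90.9 to 150 CPM at 12h, with overlap and no call, but its 4h libraries lay at 19.3 to 28.8 CPM, below all of those at 12h (2.24 ± 0.17, adjusted p = 2.7e-17). AT5G57670, annotated as a protein kinase, was at 0.243 to 0.814 CPM at 0h and 2.79 to 3.54 CPM at 12h under that label and rose by 2.49 ± 0.60 (adjusted p = 0.00047). In WT, AT5G57670 was at 0.158 to 0.193 CPM at 6h and 1.81 to 2.30 CPM at 1D, with no overlap, and rose by 3.50 ± 0.65 (adjusted p = 1.3e-05).

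Of 11 transcription factors, 8 were higher at 12h than at 0h in libraries labelled gpat4 gpat8 and none was lower. For all genes the shares were 9.6% higher and 6.9% lower. Without replicate 2 at 0h, 6 of the 11 were higher. The 8 were WRKY66, CPL3, AT1G80580, NAC101, WRKY31, AT1G68810, bZIP44 and WRKY51. WRKY66 (AT1G80590, chromosome 1, 30296166 to 30297224), a WRKY factor, was at 0 counts in all 3 libraries at 0h and at 2.48, 3.55 and 3.15 CPM at 12h, at least 58.4-fold higher against a floor of 3 counts per library. WRKY31, of the same family, was likewise at 0 at 0h and at 6.13, 7.31 and 6.55 CPM at 12h, at least 127-fold higher. In rbohE, WRKY31 was at 0.0748, 0 and 0.0646 CPM at 0h and at 3.24 to 5.92 CPM at 3D and 2.43 to 3.90 CPM at 5D, both called higher. In these files 1 sequenced fragment was worth about 2.63 counts, so such bounds may be too high by up to that factor. WRKY66 was also at 0 in rbohE at 0h and at 2.65, 3.15 and 2.90 CPM at 1D, at least 61.2-fold higher, beside 2.51, 3.13 and 3.57 CPM in WT at 1D. Its neighbour AT1G80580, annotated as an integrase-type DNA-binding protein, was at 0 at 0h in all 3 genotypes and at 6.40 to 6.99 CPM in WT and 1.55 to 1.57 CPM under the gpat4 gpat8 label at 12h.

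CPL3, a small single-repeat MYB protein that represses trichome formation, was higher at 12h than at each of the 4 tested times under the gpat4 gpat8 label. It was at 10.3, 9.89 and 10.5 CPM at 0h and 44.0, 31.4 and 32.6 CPM at 12h, a rise of 1.74 ± 0.26 (adjusted p = 9.2e-08), where WT at 12h was at 21.8 to 22.6 CPM. At 4h it was at 0.603 to 0.953 CPM, a difference of 5.39 ± 0.32 from 12h (adjusted p = 2.3e-21), and at 1D at 4.62 to 6.77 CPM, a difference of 2.70 ± 0.27 (adjusted p = 1.6e-12). No library at another time overlapped those at 12h. In WT, CPL3 was at 6.61 to 9.29 CPM at 6h and 4.78 to 5.69 CPM at 1D, and its change of -0.73 ± 0.26 was not called. NAP, a NAC factor that promotes leaf senescence, followed another course. It was at 184 to 327 CPM at 0h and 196 to 258 CPM at 12h under the gpat4 gpat8 label, above the 121 to 171 CPM of WT at 12h, and its 1D level of 143 to 166 CPM was 3.13 ± 0.28 above the 18.2 to 20.9 CPM of WT at 1D (adjusted p = 1.0e-13). In rbohE it was at 94.2 to 104 CPM at 0h and a mean of 34.8 CPM at 1D, a change of -1.65 ± 0.26 (adjusted p = 2.7e-07), the only member called lower at 1D in that genotype.

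Folding, glycan and sorting genes divided in WT, where 5 of the 10 stood at 75% or more of their 12h mean at 6h and the other 5 under 50%. PDIL1-3, UNE5, PDIL1-1 and PDIL1-2 were among the former and VSR5, VSR6, CRT3, ENGase85A and PNG1 were the latter. PDIL1-1 and PDIL1-2 are disulfide isomerases of the endoplasmic reticulum. PDIL1-2 was at 266, 204 and 198 CPM at 6h, 199, 193 and 171 CPM at 12h and 164, 176 and 138 CPM at 18h in WT, against 55.2 to 69.7 CPM at 0h. In rbohE it was at 43.7, 46.1 and 40.2 CPM at 0h, 116, 106 and 145 CPM at 4h and 141, 146 and 124 CPM at 1D, rises of 1.46 ± 0.18 (adjusted p = 3.8e-10) and 1.53 ± 0.18 (adjusted p = 1.8e-10) with no overlap. PDIL1-1 was at 87.4 to 100 CPM at 0h and 324 to 374 CPM at 1D and rose by 1.77 ± 0.12 (adjusted p = 1.8e-19). With PDIL1-3 and UNE5, another disulfide isomerase, 4 of 10 rose at 1D over 0h and none fell, against 12.8% of all genes higher and 11.7% lower. Under the gpat4 gpat8 label 3 of 10 rose at 12h from 0h, namely VSR5, UNE5 and PDIL1-2, against 9.6% of all genes. None was called between 12h and 1D in either direction, against 13.3% of all genes. PDIL1-2 was at 30.0, 48.7 and 26.8 CPM at 0h and 84.3, 79.1 and 79.9 CPM at 12h there, a rise of 1.13 ± 0.18 (adjusted p = 5.3e-07) whose call was lost without replicate 3 at 0h (0.98). UNE5 overlaps a gene on the other strand and is uncertain.

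CRT3 is the calreticulin that folds the receptor of bacterial elongation factor. In WT it was at 110, 109 and 132 CPM at 6h, 356, 358 and 298 CPM at 12h and 223, 264 and 259 CPM at 1D. It rose by 1.04 ± 0.17 from 6h to 1D (adjusted p = 6.3e-07), a call lost without replicate 2 at 1D (1.00) or replicate 2 at 6h (0.99). Under the gpat4 gpat8 label it was at 92.8 to 152 CPM at 0h and 90.5 to 110 CPM at 12h, and the change did not pass the test. VSR6, a vacuolar sorting receptor, was at 6.32 to 13.9 CPM at 6h and 26.2 to 31.0 CPM at 1D in WT and rose by 1.52 ± 0.31 (adjusted p = 6.4e-05).

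Wall and extracellular enzymes rose at 12h under the gpat4 gpat8 label in 8 of 17 cases, with none lower than at 0h. For all genes the shares were 9.6% higher and 6.9% lower. EXPA9, an expansin that loosens walls, was at 3.42, 3.75 and 5.07 CPM at 0h and 10.8, 10.6 and 10.3 CPM at 12h and rose by 1.3 ± 0.19 (adjusted p = 7.0e-08), but its 9.50 to 11.8 CPM at 1D overlapped the 12h libraries. AO1, a copper amine oxidase of the wall, was at 0.373, 0.243 and 1.05 CPM at 0h and 3.17, 3.90 and 4.42 CPM at 12h and rose by 2.69 ± 0.50 (adjusted p = 7.9e-06). It was again low at 2D, at a mean of 0.478 CPM (12h from 2D, 3.22 ± 0.51, adjusted p = 2.9e-07). In rbohE, AO1 was at a mean of 1.57 CPM at 0h and 0.0574 to 0.266 CPM at 5D, with no overlap, a change of -3.60 ± 0.56 (adjusted p = 1.5e-07). AO1 overlaps a gene on the same strand and is uncertain. AT1G29090, a cysteine proteinase, was at 0 in all 3 libraries at 0h and at 5.05 to 8.56 CPM at 12h, at least 127-fold higher. The chitinase AT1G02360, ranked second by score, was at 4.99 to 6.26 CPM at 12h and 9.37 to 17.1 CPM at 4h under that label, lower by -1.23 ± 0.36 on the log2 scale (adjusted p = 0.0032), a call lost without replicate 3 at 4h (-0.90). In WT it was at 10.6, 11.9 and 7.42 CPM at 12h and 1.85 to 5.14 CPM at 4h. In rbohE at 1D, 6 of 17 wall enzymes were higher than at 0h and none was lower (12.8% and 11.7% of all genes).

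Of 9 transporters, 4 rose from 0h to 12h under the gpat4 gpat8 label and 5 rose from 0h to 1D in rbohE, and none was lower in either. Shares of all genes were 9.6% higher and 6.9% lower in the former, and 12.8% and 11.7% in the latter. CHX18, a cation/proton exchanger of the plasma membrane, was at 0, 0 and 0.282 CPM at 0h and 13.1, 15.3 and 13.5 CPM at 12h in libraries labelled gpat4 gpat8, a rise of 7.05 ± 0.74 (adjusted p = 1.1e-11). At 1D it was at 3.08 to 7.39 CPM, below all libraries at 12h, by 1.47 ± 0.50 (adjusted p = 0.015), a call lost without replicate 3 at 1D (1.19). In rbohE it was at 0.147 to 0.329 CPM at 0h and 6.30 to 10.5 CPM at 1D and rose by 5.21 ± 0.66 (adjusted p = 1.0e-09). CHX18 overlaps a gene on the other strand and is uncertain. SULTR1;3, a sulphate transporter of phloem companion cells, gave the member called furthest below WT at 1D under the gpat4 gpat8 label. It was at 0.272, 0.254 and 0.101 CPM there and at a mean of 1.95 CPM in WT, with no overlap, a difference of -3.06 ± 0.70 (adjusted p = 0.00027), while rbohE was at 2.18, 2.62 and 1.94 CPM. Under the gpat4 gpat8 label SULTR1;3 was higher at 2D, at 1.43 to 1.57 CPM, than at 12h, where it was at 0.321, 0 and 0.301 CPM (12h from 2D, -2.64 ± 0.69, adjusted p = 0.0011).

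As a description only, metabolic enzymes were the role closest to the WT level at 12h in libraries labelled gpat4 gpat8, with a median of 80.9% of the WT mean. Within that label 6 of 22 rose from 0h to 12h, and in rbohE 10 of 22 rose from 0h to 1D, with none lower in either. Of all genes, 9.6% were higher and 6.9% lower in the former, and 12.8% and 11.7% in the latter. The 10 became 7 without rbohE replicate 1 at 1D. TH7, a thioredoxin, was at 0.138, 0.162 and 0.199 CPM at 0h and 12.0, 8.35 and 9.44 CPM at 12h under the gpat4 gpat8 label, a rise of 5.80 ± 0.45 (adjusted p = 2.3e-16), and in rbohE at 0.0815 to 0.254 CPM at 0h and 7.03 to 15.1 CPM at 1D, a rise of 5.77 ± 0.43 (adjusted p = 5.2e-17). SRG1, an oxygenase named for its rise in senescence, was at 2.02, 4.48 and 2.14 CPM at 0h and 44.1, 52.4 and 48.1 CPM at 12h, a rise of 3.99 ± 0.38 (adjusted p = 3.9e-13), and its 12h level overlapped that of WT at 45.9 to 56.9 CPM. SAG13, a dehydrogenase used as a senescence marker, was at 3.04, 1.48 and 2.52 CPM in rbohE at 0h and 184, 245 and 173 CPM at 2h, a rise of 6.66 ± 0.43 (adjusted p = 3.6e-20). SAG13 shares 90.2% identity over 42.4% of its length with AT2G29290 and is uncertain. ABA2, which makes abscisic aldehyde in abscisic acid synthesis, was at 19.4, 22.1 and 19.2 CPM at 12h and 9.84, 8.44 and 9.91 CPM at 1D under the gpat4 gpat8 label and was higher at 12h by 1.17 ± 0.13 (adjusted p = 6.5e-11), and it is uncertain because it overlaps a gene on the other strand.

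**Figure D4:**
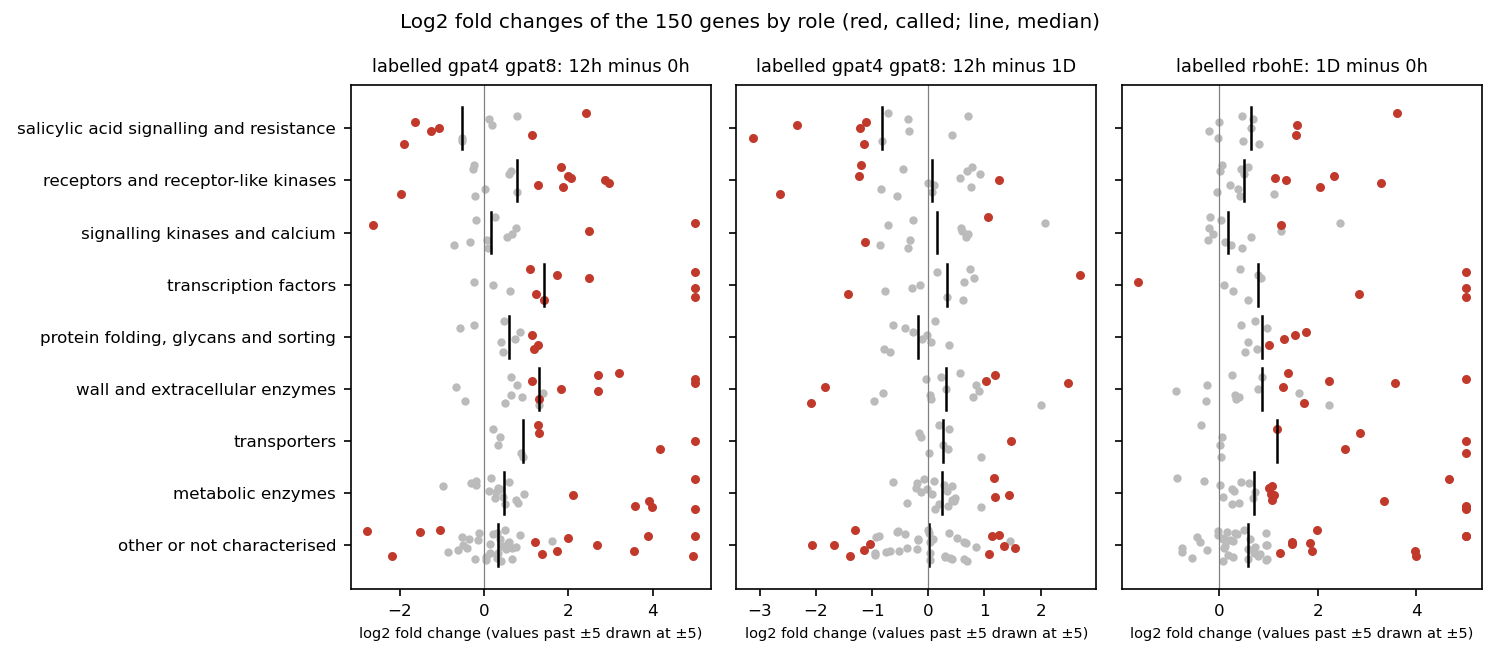
Fitted log2 fold change of each member, grouped by role, in 3 tested comparisons that the choice of genes did not use, with 1 point per gene, called genes in red, a line at each median and values past -5 or 5 drawn there. Salicylic acid genes have a median of -0.52 at 12h against 0h under the gpat4 gpat8 label and of 0.64 at 1D against 0h in rbohE, whereas transcription factors have medians of 1.41 and 0.79.

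The neighbours AT1G24145 and AT1G24147, whose products are not characterised, were both lower at 12h than at 0h under the gpat4 gpat8 label. AT1G24147 was at 57.7, 64.6 and 87.5 CPM at 0h and 32.5, 18.9 and 25.4 CPM at 12h there, a change of -1.53 ± 0.38 (adjusted p = 0.00077), whereas WT was at 13.6 to 21.7 CPM at 0h and 71.3 to 88.0 CPM at 12h. AT1G24145 was at 78.6 to 117 CPM at 0h and 10.5 to 19.9 CPM at 12h there, a change of -2.78 ± 0.27 (adjusted p = 1.4e-12). AT2G15780, a cupredoxin, was at 0 in all 3 of these libraries at 0h and at 3.39, 4.53 and 4.37 CPM at 12h, at least 78.1-fold higher.

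Across the rbohE series the members were low at 2h, mixed at 4h, high at 1D and mixed again later. At 4h, 36 were higher and 23 lower than at 0h, against 19.2% of all genes higher and 17.9% lower (37.1% in either direction). At 1D, 48 were higher and 1 lower, against 12.8% and 11.7% of all genes, with a median of 0.63 against 0.01. At 3D, 23 were higher and 23 lower (13.9% and 11.3% of all genes), and at 5D, 20 were higher and 32 lower (12.7% and 11.8% of all genes). Of the 6 rbohE groups, 1D held the highest mean for 101 members, or 67.3%. The share was 10.8% of the 29805 genes with a count, which include genes too low to test. Guard cell markers summed to 85.9 CPM at 0h and 102 CPM at 1D in rbohE, and mesophyll markers to 17700 to 19300 CPM at 0h and 4240 to 5000 CPM at 1D, and their part in the changes was not tested.

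Libraries of different labels could be compared without the score at 1D. In rbohE against WT, no member was called, against 0.609% of all genes higher and 0.222% lower (0.831% in either direction). DESeq2 also called 0, 8 members had an unadjusted p under 0.05, and 2 had an adjusted p under 0.05 with a fold change under the threshold: AT3G08870, a lectin receptor kinase, at -0.54 (adjusted p = 0.0499), and AT1G73630, a calcium-binding protein, at -0.57 (adjusted p = 0.0213). The median difference was -0.06, and for 117 of 150 members the 95% interval of the fitted change lay within 1 log2 unit of 0, while for the other 33 a change of 2-fold or more was not bounded. In the libraries labelled gpat4 gpat8 against WT at 1D, 4 members were higher and 7 lower, against 7.8% and 3.61% of all genes, with a median of -0.19 against 0. All libraries of that label at 1D were M libraries, so the label and M cannot be told apart in this comparison. Without replicate 2 or replicate 3 of WT at 1D, 4 were higher and 4 lower. The 4 higher were NAP, CHAT, ATSBT5.2 and AT4G27740. The last overlaps a gene on the same strand and is uncertain, and its call was lost without replicate 1 of WT at 1D. None of the 11 salicylic acid genes was called, and their median was -0.32. Medians of the other roles ran from -0.59 for folding genes and -0.41 for receptors to 0.13 for metabolic enzymes. Those M libraries stood at 4.26 CPM of CCA1 at 1D against 8.03 CPM in WT.

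Some members belong to 3 wider lists of genes, which were chosen with earlier results known. The WT peaks of these lists come from the libraries that the score used and are descriptions only. Of 40 genes of salicylic acid and systemic resistance, 6 are members, whose WT peak was fixed by the score. Of the other 34, 20 had their highest WT mean at 12h or 18h, against 10.7% of all genes with a WT count. Under the gpat4 gpat8 label, 12h against 0h called 8 of the 40 higher and 12 lower, with a median of -0.53, and 12h against 1D called 1 higher and 13 lower. In rbohE at 1D against 0h, 15 were higher and 2 lower. Of 20 receptor-like kinases of immunity, 2 are members, and 8 of the other 18 had their highest WT mean at 12h or 18h. Of the 20, 4 were higher and 7 lower at 12h than at 0h under the gpat4 gpat8 label. Of 15 genes of folding and secretion in the endoplasmic reticulum, with 3 members, 9 had their highest WT mean at 6h, and none of the 12 that are not members had it at 12h or 18h. In that list, 7 were higher and 1 lower at 12h than at 0h under the gpat4 gpat8 label, with a median of 0.84, and 9 were higher and none lower in rbohE at 1D, with a median of 1.36. The background shares for these comparisons are those given above for all genes.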

How the data were processed

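RNA sequencing of 75 libraries was analysed from 1 deposited table of 32833 genes. Its values are estimated counts per gene, deposited by the authors as whole numbers and made with StringTie, per the file headers. Trimmomatic 0.39, HISAT2 2.2.1, StringTie 1.3.4, edgeR 3.19 and the build TAIR10 are listed in the submitters' processing notes with no role or order. The library kit keeps strand, per the labels' protocols, but whether counting used it is not given in the sources used here. Low counts were spaced by about 2.63, so 1 fragment added more than 1 count and counting error is larger than the counts alone would give.

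Genes were scored on CPM of the column total with a pseudocount of 1 CPM. Tests used 1 edgeR 4.0.16 quasi-likelihood fit (robust, TMM, limma 3.58.1, R 4.3.3) of all 75 libraries with 1 coefficient per group, on 23475 genes kept by filterByExpr (minimum count 10, minimum total 15), with fitted changes at a prior count of 0.125 and Benjamini-Hochberg adjustment over all of them. On simulated counts, 99.0% of 4-fold and 82.0% of 2-fold changes were recovered at an adjusted p under 0.05, with no minimum fold change. The changed genes had a mean of at least 50 counts, and the simulated counts lacked the spacing of 2.63. Recovery under the full rule for a call, or of genes with lower counts, was therefore not measured. Apart from the changed genes, the simulation gave each gene 1 mean in all groups. Its spread followed the fitted trend only, so genes more variable than the trend were not represented. Replicates of a group correlated at 0.986 to 0.998, and none were counted as 1 library. DESeq2 1.42.0, other scalings, filters and fits and left-out libraries were tried.

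Genes named were the 10 with the highest scores, the 3 on each side of the threshold, members of the lists, and the largest called increase and decrease in each comparison. Other genes named were chosen after their values were seen. The members, their roles and the gene lists were chosen with earlier results of these data known. Promoter windows and annotation came from RefSeq's copy of TAIR10.1, and copies were found with blastn 2.17.0.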

Additional observations from a re-analysis of the deposited data

How the results depend on the processing

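The total of members called in a comparison moved by at most 1.5 times under every alternative tried. Of the counts over all members in 1 direction, 2 moved more, the 18 lower at 12h than at 1D, which became 11 without replicate 3 at 1D, and the 7 lower than WT at 1D, which became 4 without replicate 2 or 3 of WT. Leaving out 1 library at a time gave, for the gpat4 gpat8 label, 55 to 58 members between 12h and 0h, 22 to 38 between 12h and 1D, 45 to 54 between 12h and 4h, 43 to 48 between 12h and 2D, and 8 to 11 for that label against WT at 1D. In rbohE it gave 64 to 70 at 2h, 55 to 59 at 4h, 45 to 51 at 1D, 42 to 48 at 3D and 50 to 54 at 5D against 0h, and 0 to 0 against WT at 1D. For WT at 1D against 6h it gave 29 to 41. DESeq2 gave 60, 33, 53 and 46 for the 4 comparisons of 12h and 38 for the WT comparison. Replicate numbers did not pair the libraries, with correlations of deviations between -0.192 and 0.243, and the fit with the replicate number as a block gave 59, 33, 49 and 44 members for the same 4 comparisons, 49 for rbohE at 1D against 0h and 38 for the WT comparison.

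The membership itself moved more. Of the 150 genes, 118 were also chosen with TMM-scaled CPM, 128 with the median of the replicates and 119 to 127 with 1 WT replicate left out at every time. Among 2034 alternative values for 170 pairs of a named gene and a comparison, 1956 kept their direction and their call, 78 kept the direction and lost the call, and 0 reversed. In fits of only the 2 groups compared, 159 pairs kept their call, 5 lost it and the rest were no longer tested and gave no value. A call was lost with a library left out for 29 pairs, and the cause was not tested. Depth limits the genes near 0 at 0h, whose fitted folds depend on the prior count.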

Other observations

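The other 7 gene lists examined held no member. Of genes with counts, the highest WT mean was at 12h or 18h for 0 of 12 of camalexin and indole metabolism, 1 of 17 of dark and sugar starvation, 0 of 31 of the cell cycle and DNA replication, 4 of 21 of the circadian clock, 0 of 19 of jasmonate, 1 of 20 of suberin and 2 of 15 of wound regeneration. The highest WT mean was at 2D for 21 of the 31 cell cycle genes, at 3D for 16 of the 20 suberin genes and at 1h or 2h for 15 of the 19 jasmonate genes.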
